A study of Mus musculus with 3 samples.

Results

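Members of the TNF receptor superfamily and their TRAF adaptors were examined as a group of 10 genes chosen by name: the receptor genes Tnfrsf1a, Tnfrsf1b, Tnfrsf4, Tnfrsf9, Tnfrsf18, Cd27 and Fas, and the adaptor genes Traf1, Traf2 and Traf3. The mark measured over them was H3K36me3, trimethylation of lysine 36 of histone H3, profiled by ChIP-seq (sequencing of DNA immunoprecipitated with an antibody to the mark) in mouse regulatory T (Treg) cells. The cells were adult C57BL/6 Treg cells that expressed CD3, CD4 and YFP from the Foxp3Cre-YFP allele, which places Cre and the reporter under control of Foxp3, the lineage gene of Treg cells, and both tissues came from unchallenged mice with this allele. One pool of splenic (SP) cells and 1 pool of large intestinal (LI) cells, from 7 male and 7 female mice, gave 1 library each, and an input library of splenic chromatin was not analysed here. There are therefore no replicates, each difference is between 2 libraries of pooled animals, and no test was possible. Peaks were taken as belonging to a gene when their midpoint lay in its GENCODE M21 body on mm10, which gave 106 of the 120910 deposited peaks, and all 10 genes had at least 1 peak.

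TNF receptors are surface proteins that bind trimeric ligands and have no enzyme activity of their own. They recruit either death domain proteins, which can lead to cell death, or TRAF proteins, which assemble ubiquitin ligase complexes and start NF-kB and MAP kinase signalling. Several of them, among them GITR, OX40, CD137 and the second TNF receptor, are well known on Treg cells, where they act as costimulatory receptors. H3K36me3 is written by Setd2, which travels with elongating RNA polymerase II, so the mark covers the bodies of transcribed genes and usually rises towards their ends.

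The mark differed most at 3 receptor genes. Tnfrsf9 and Tnfrsf18 had more H3K36me3 in LI Treg cells, 1.97-fold and 1.75-fold, and Fas had more in SP Treg cells, 1.61-fold. Tnfrsf1b and Tnfrsf4 were higher in LI by smaller amounts, Traf1 by 1.14-fold, and the remaining 4 genes, Tnfrsf1a, Cd27, Traf2 and Traf3, had summed ratios whose approximate counting intervals included 0. For Traf3 this depended on how its peaks were combined. For Cd27 it depended on a correction for GC content and on the number of bases each read was taken to cover. After the correction for GC content the intervals of Tnfrsf4 and Traf1 also included 0. No member passed 2-fold in either direction, while among the 10886 genes with enough signal 3.43% passed it towards LI and 2.04% towards SP.

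Stretches of the peaks that carry these differences are shown so that the marked DNA can be seen. They were read from the GRCm38.p6 reference, the assembly of mm10, on the plus strand, which is the coding strand of all 4 genes, and capitals mark bases that are coding in at least 1 annotated transcript. Each comes from the peak of its gene that had the largest ratio for its counting error among peaks with coding sequence. Tnfrsf9 and Tnfrsf18 had more signal in LI, Fas had more in SP, and Traf3 is shown as a gene whose summed ratio was near 0.
Tnfrsf9, chr4:150932227-150932526: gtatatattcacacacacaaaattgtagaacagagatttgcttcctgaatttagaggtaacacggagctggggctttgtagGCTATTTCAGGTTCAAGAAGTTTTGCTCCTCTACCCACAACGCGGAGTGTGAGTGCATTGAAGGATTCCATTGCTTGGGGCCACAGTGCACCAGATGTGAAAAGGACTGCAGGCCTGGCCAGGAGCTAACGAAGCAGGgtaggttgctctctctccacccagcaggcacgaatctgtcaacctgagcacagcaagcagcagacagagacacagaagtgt
Tnfrsf18, chr4:156028225-156028524: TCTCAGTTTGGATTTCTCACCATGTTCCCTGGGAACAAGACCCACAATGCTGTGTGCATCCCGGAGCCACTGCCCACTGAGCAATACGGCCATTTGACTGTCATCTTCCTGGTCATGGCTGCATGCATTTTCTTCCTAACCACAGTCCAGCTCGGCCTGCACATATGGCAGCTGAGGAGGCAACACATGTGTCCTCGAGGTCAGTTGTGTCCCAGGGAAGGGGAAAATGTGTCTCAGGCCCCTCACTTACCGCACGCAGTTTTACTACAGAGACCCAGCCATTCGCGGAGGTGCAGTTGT
Fas, chr19:34319200-34319499: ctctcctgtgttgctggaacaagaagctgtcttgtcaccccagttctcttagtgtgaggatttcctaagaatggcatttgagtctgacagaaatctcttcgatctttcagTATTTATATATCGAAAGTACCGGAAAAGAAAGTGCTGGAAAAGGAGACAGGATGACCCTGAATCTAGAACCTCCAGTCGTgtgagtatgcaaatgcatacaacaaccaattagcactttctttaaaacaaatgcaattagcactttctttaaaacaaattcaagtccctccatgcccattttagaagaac
Traf3, chr12:111261624-111261923: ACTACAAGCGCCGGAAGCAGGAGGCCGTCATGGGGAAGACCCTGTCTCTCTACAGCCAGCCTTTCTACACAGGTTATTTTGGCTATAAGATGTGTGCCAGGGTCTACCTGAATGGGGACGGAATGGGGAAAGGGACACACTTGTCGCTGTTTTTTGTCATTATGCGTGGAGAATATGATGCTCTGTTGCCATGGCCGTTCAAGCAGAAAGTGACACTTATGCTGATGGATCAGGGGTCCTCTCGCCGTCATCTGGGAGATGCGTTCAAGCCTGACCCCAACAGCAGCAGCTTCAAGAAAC
The Tnfrsf9 stretch holds a coding exon of 138 bases with intron on both sides, and lies in a peak of 5553 bp with a mean of 16.7 RPKM in SP and 27.5 RPKM in LI. The Fas stretch holds a coding exon of 80 bases and lies in a peak of 1073 bp with 13.4 RPKM in SP and 4.96 RPKM in LI. The corresponding peak values were 26.2 and 45.9 RPKM at Tnfrsf18, and 26.0 and 31.5 RPKM at Traf3. RPKM stands for reads per kilobase adjusted for library depth, and each value is the mean over a peak. The GC content of the stretches was 49.7% for Tnfrsf9, 54.0% for Tnfrsf18, 39.7% for Fas and 52.0% for Traf3.

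Depth and library differences bear on all values that follow. The whole-read steps in the table correspond to about 29600000 mapped reads in SP and 38100000 in LI, and the summed signal of all peaks was 1.03 times as high in LI, which was divided out of every ratio. Ratios are log2 of LI over SP after adding 0.5 RPKM to each, so fold changes of weakly marked genes come out too small. The intervals given with them are approximate 95% counting intervals, with each read taken to cover 200 bp, and they hold counting error only. Over the 10886 genes with at least 20 RPKM in both libraries together, ratios had a median of 0.01, with quartiles of -0.20 and 0.24. The ratio rose with GC content, from a median of -0.53 in the twentieth of peaks with the lowest GC content to 0.35 in the twentieth with the highest. Signal over markers of T and Treg cells was present in both libraries, with peaks in 6 of 6 (Cd3e, Cd4, Foxp3, Il2ra, Ctla4 and Ikzf2). Peaks were present in 1 of 5 markers of myeloid cells, 2 of 5 of intestinal epithelium and 1 of 4 of CD8 T and NK cells. Of the B cell markers, Cd79a and Pax5 had peaks, which summed to 51.3 RPKM in SP and 39.7 RPKM in LI. Summed in the same order, the myeloid list had 14.7 and 16.3 RPKM, the epithelial list 29.9 and 59.8, and the CD8 T and NK cell list 21.1 and 9.46. The T and Treg list had 1777 and 1475, of which Ikzf2 alone, with 115 peaks, gave 1205 and 851. Of the 6 genes in it, 3 had a ratio above 0 and 3 below. These sums grow with the number of peaks and do not compare levels between lists. Ms4a1, Ebf1, Lyz2, Itgam, Cd14, Adgre1, Krt8, Krt20, Cdx2, Cd8a, Klrb1c and Ncr1 had no peak. The part of other cell types in the ratios below was not tested. In pooled cells, more cells with the mark at a gene and more mark per cell cannot be told apart.

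**Figure D1:**
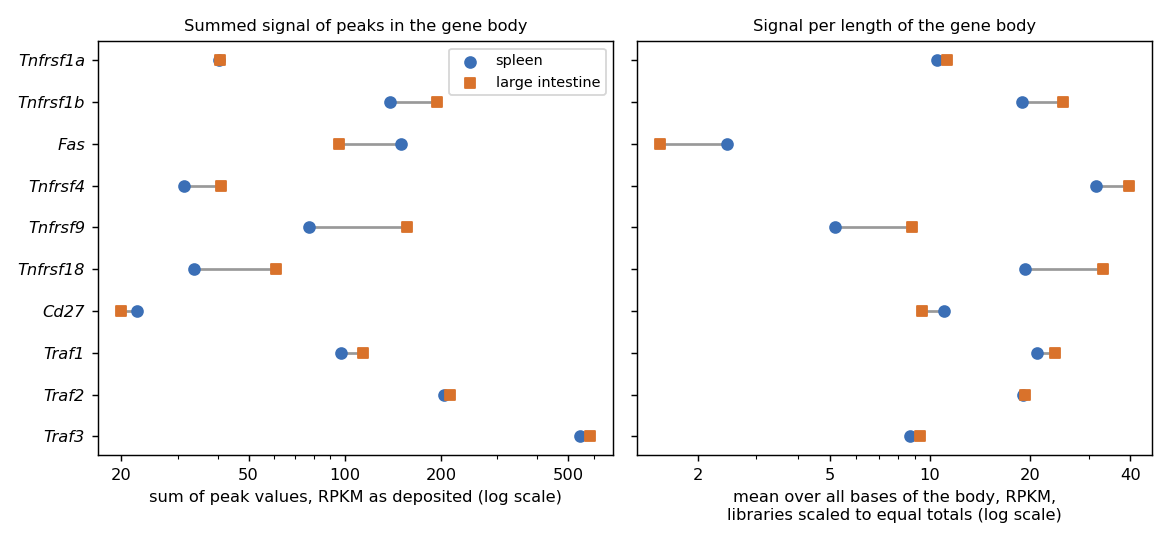
Left, the sum of peak values in each gene body in RPKM as deposited; right, the mean RPKM over all bases of the body with the libraries scaled to equal totals; both axes are logarithmic, and circles stand for the spleen library and squares for the large intestine library. In the right panel bases outside peaks added no signal. The squares lie to the right of the circles at Tnfrsf9, Tnfrsf18, Tnfrsf1b, Tnfrsf4 and Traf1. They lie to the left at Fas and Cd27, and nearly on the circles at Tnfrsf1a, Traf2 and Traf3.

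Among the costimulatory receptors, Tnfrsf9 showed the largest ratio of the 10 genes. It encodes CD137, a receptor that T cells induce on activation, and lies on chromosome 4 from 150914562 to 150946102 on the plus strand (ENSMUSG00000028965.13). Its 10 peaks summed to 77.1 RPKM in SP and 156.9 RPKM in LI, a ratio of 0.97 with an interval of 0.72 to 1.23. All 10 peaks were higher in LI, with ratios from 0.21 to 2.53, and 5 of them passed 2-fold. The peak with the most signal gave only 0.66, the 5 peaks of 1 kb or more together also gave 0.66, and the 9 peaks other than the strongest gave 1.05, so the size of the difference depended on which peaks were counted. Without scaling of the libraries the gene gave 1.02, just past 2-fold. The midpoint of the first peak lay 15.0 kb into the annotated body, at 47.5% of its length and within 1 kb of another annotated transcript start, and 91.2% of the signal over the body lay beyond its midpoint. All 10 peaks also lay inside the annotated body of Camta1, a gene for a transcription factor. The 26 peaks of Camta1 outside Tnfrsf9 summed to 237.1 RPKM in SP and 261.8 RPKM in LI and gave a ratio of 0.10 (-0.14 to 0.33), and Park7, 0.12 kb before the start of Tnfrsf9, gave 0.07 (-0.07 to 0.21). Both of these intervals included 0 and lay below that of Tnfrsf9.

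Tnfrsf18 and Tnfrsf4, which encode GITR and OX40, stand 9.55 kb apart on chromosome 4. Tnfrsf18 (ENSMUSG00000041954.18, 156026164 to 156028895, plus strand) had 2 peaks that covered 96.3% of its 2.73 kb body. They summed to 33.7 RPKM in SP and 61.1 RPKM in LI, a ratio of 0.80 (0.53 to 1.08), and gave 0.93 for the first peak and 0.75 for the second. Another peak overlaps the body with its midpoint outside it, and the ratio was 0.50 (0.17 to 0.83) when that peak was included. Both peaks also lay in the annotated body of Gm16008, so signal of these genes cannot be told apart. Tnfrsf4 (ENSMUSG00000029075.6, 156013843 to 156016612, plus strand) was covered from end to end by a single peak of 3195 bp with 31.5 RPKM in SP and 40.9 RPKM in LI, a ratio of 0.33 (0.12 to 0.53). Sdf4, which lies 0.23 kb before Tnfrsf4, gave -0.12 (-0.25 to 0.00), and Ttll10, on the other side of Tnfrsf18, gave 0.09 (-0.65 to 0.84) with only 17.1 and 18.8 RPKM. The intervals of Tnfrsf4 and Tnfrsf18 lay above that of Sdf4 and overlapped the wide one of Ttll10.

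Cd27, the receptor for CD70 carried by naive and memory T cells (ENSMUSG00000030336.14, chromosome 6, 125232622 to 125237010, minus strand), was the costimulatory receptor with a ratio below 0. Its only peak, of 2606 bp, had 22.5 RPKM in SP and 19.98 RPKM in LI. The ratio was -0.21 (-0.50 to 0.08), an interval that included 0 with each read taken to cover 200 bp. That interval is narrower where reads are taken to cover fewer bases. It lay below 0 with reads taken to cover 75 bp, an alternative chosen after seeing the data. After the trend with GC content was removed it lay below 0 (-0.38, -0.67 to -0.08). The peak lies at the 3' end of the gene and within the annotated body of Vamp1 as well, whose other 11 peaks gave -0.07 (-0.28 to 0.14).

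The receptors for TNF itself and the death receptor Fas had ratios of different sign. Tnfrsf1b encodes TNFR2, the TNF receptor without a death domain that Treg cells carry at high levels (ENSMUSG00000028599.10, chromosome 4, 145213463 to 145246870, minus strand). Its 10 peaks summed to 138.6 RPKM in SP and 194.4 RPKM in LI, a ratio of 0.44 (0.26 to 0.62), and 9 of the 10 were higher in LI. The peaks covered 89.3% of the body, and those of 1 kb or more all had ratios between 0.29 and 0.80. The last one, 13.0 kb long and at the 3' end, was the strongest, with 32.8 RPKM in SP and 41.6 RPKM in LI. Tnfrsf1a encodes TNFR1, the TNF receptor with a death domain that most cells express (ENSMUSG00000030341.17, chromosome 6, 125349362 to 125362484, plus strand). It had 3 peaks with 40.5 RPKM in SP and 40.7 RPKM in LI and a ratio of -0.04 (-0.48 to 0.40). Its sign depended on the weighting: the 6.87 kb peak that held nearly all of its marked bases gave 0.11 and the 2 short peaks -0.29 and -0.24, and without scaling of the libraries the gene gave 0.0064.

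Fas, which encodes the receptor for Fas ligand and triggers cell death through a death domain, was the member with the lowest ratio (ENSMUSG00000024778.13, chromosome 19, 34290666 to 34327772, plus strand). Its 14 peaks summed to 149.7 RPKM in SP and 95.9 RPKM in LI, a ratio of -0.69 (-0.99 to -0.38). In 13 of the 14 peaks the SP value was higher, and 6 of them passed 2-fold. The peaks were short, with a median of 354 bp, and covered 21.3% of the body. Their ratios had an SD of 0.69, beside a median counting error of 0.58 for a single peak. That error takes each read to cover 200 bp and would be smaller with fewer bases per read. The last peak, the only one with its midpoint in a coding exon, had 8.46 RPKM in SP and 8.35 RPKM in LI and gave -0.06 (-1.01 to 0.89). The exception was a peak of 218 bp with 5.63 RPKM in SP and 9.77 RPKM in LI, whose own interval, from -0.95 to 2.36, is wide. The peak with the most signal had 16.0 RPKM in SP and 12.1 RPKM in LI, and its interval alone, -1.18 to 0.31, included 0. Acta2, the coding gene next to Fas, gave -0.44 (-1.09 to 0.21) with 22.1 and 16.7 RPKM.

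**Figure D2:**
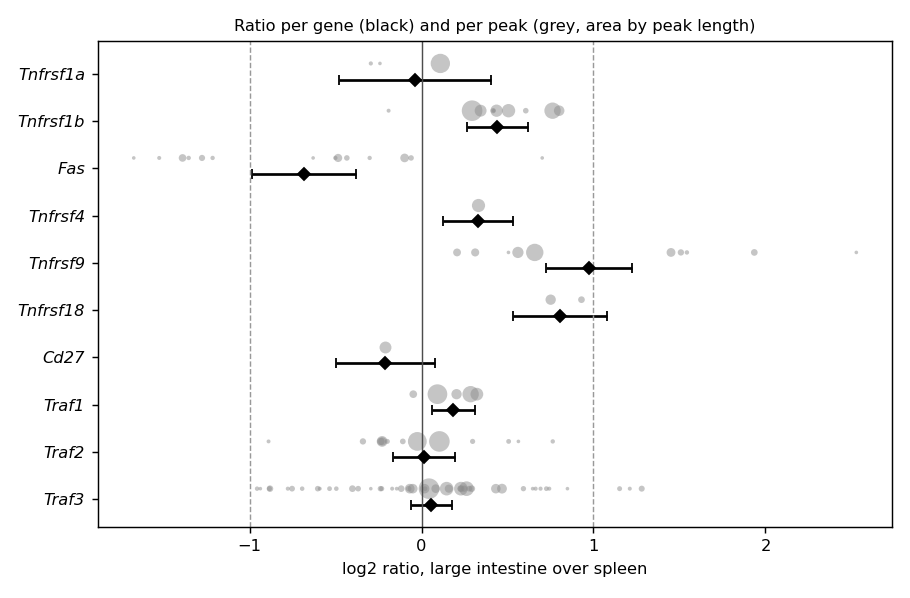
Log2 ratio of large intestine over spleen for each gene (black diamonds with approximate 95% counting intervals) and for each of its peaks (grey circles, area by peak length); dashed lines mark 2-fold. The intervals of Tnfrsf9, Tnfrsf18, Tnfrsf1b, Tnfrsf4 and Traf1 lie above 0, that of Fas lies below 0, and the long peaks of Traf2 and Traf3 cluster near 0 while their short peaks scatter to both sides.

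The 3 TRAF adaptor genes had ratios between 0.01 and 0.18. Traf1, an adaptor without a RING domain that NF-kB induces and that pairs with TRAF2 (ENSMUSG00000026875.14, chromosome 2, 34941750 to 34961772, minus strand), had 97.4 RPKM in SP and 114.3 RPKM in LI over 5 peaks. Its ratio was 0.18 (0.06 to 0.31), with 4 of 5 peaks higher in LI and all 5 between -0.05 and 0.32. Its interval included 0 in the strongest peak (0.09, -0.05 to 0.23) and with peaks given to the nearest transcript start (0.17, -0.02 to 0.36). Traf2, a ubiquitin ligase adaptor used by most of these receptors (ENSMUSG00000026942.13, chromosome 2, 25517982 to 25546940, minus strand), had 204.2 RPKM in SP and 212.8 RPKM in LI over 13 peaks and a ratio of 0.01 (-0.17 to 0.20). Of its peaks 5 were higher in LI and 8 in SP, and the 2 long ones that fill the 3' part gave -0.02 and 0.10.

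Traf3, which restrains the alternative NF-kB pathway by keeping the kinase NIK low, was the longest of the genes and had the most peaks (ENSMUSG00000021277.16, chromosome 12, 111166370 to 111267153, plus strand). Its 47 peaks summed to 542.2 RPKM in SP and 582.5 RPKM in LI, a ratio of 0.06 (-0.06 to 0.18), with 25 peaks higher in LI and 22 in SP. Single peaks ranged from -0.96 to 1.28, and 3 passed 2-fold towards LI, but the 11 peaks of 1 kb or more stayed between -0.07 and 0.47. The SD of its peak ratios was 0.58, beside a median counting error of 0.46 for a single peak with each read taken to cover 200 bp. The first 11 peaks also lie in the body of 4930595D18Rik and gave -0.10 (-0.37 to 0.17), and the other 36 gave 0.10 (-0.03 to 0.23). The interval lay above 0 when peaks of 1 kb or more were used (0.17, 0.07 to 0.27), when each peak counted by its length (0.11, 0.03 to 0.18) and in the most marked peak alone (0.23, 0.01 to 0.45).

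**Figure D3:**
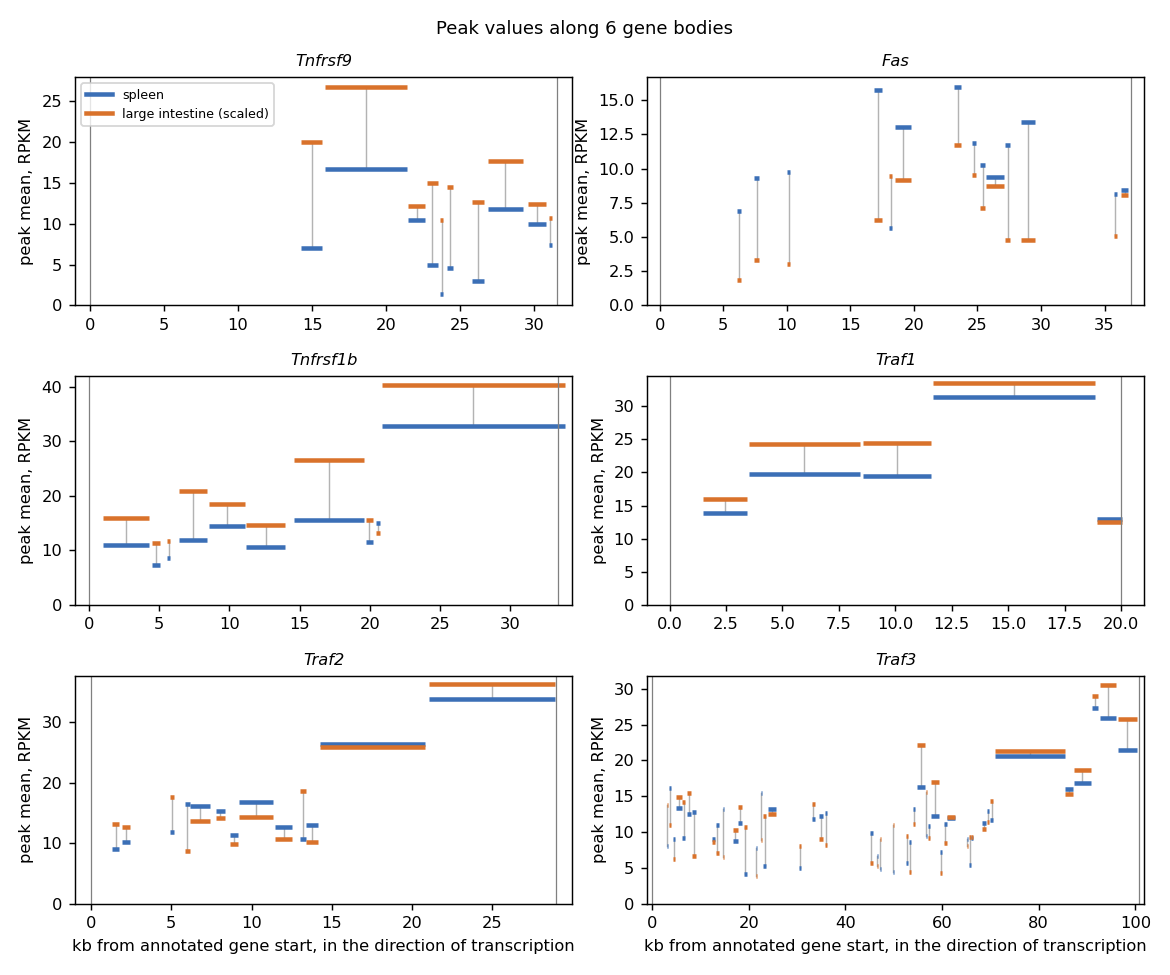
Mean RPKM of each peak (bar length shows peak length) against distance in kb from the annotated start in the direction of transcription, for 6 genes, in spleen (blue) and in large intestine scaled to the spleen total (orange); thin vertical lines mark the ends of the annotated body. The orange bars stand above the blue ones at every peak of Tnfrsf9 and below them at 13 of 14 peaks of Fas, and the strongest bars of Tnfrsf1b, Traf1, Traf2 and Traf3 lie beyond the midpoint of the body.

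Most of the genes had more of their signal beyond the midpoint of the body, whatever their ratio. Of the 106 peaks, 99 had their midpoint in an intron, 4 in a coding exon and 3 in a 3' UTR, counting protein-coding transcripts. The midpoint does not describe a whole peak: the Tnfrsf4 peak, with its midpoint in an intron, held 1030 exonic bases. The same count was not made over all peaks. The part of the body beyond its midpoint held 100% of the signal in Cd27, 98.4% in Tnfrsf1a, 83.2% in Traf3, 80.2% in Fas, 79.3% in Traf2, 71.9% in Tnfrsf1b, 67.3% in Tnfrsf18, 62.4% in Traf1 and 49.98% in Tnfrsf4, beside a median of 73.5% over the 9456 coding genes with enough signal. Each peak has 1 value, taken as even along its length, so no slope inside a peak was measured. The shares of Cd27 and Tnfrsf4, with a single peak each, follow only from where that peak lies. Per peak, 58 of the 106 (54.7%) were higher in LI, against 49.0% of all peaks. Of the 106, 8 passed 2-fold towards LI (7.55%) and 6 towards SP (5.66%). Over all peaks the shares past 2-fold were 9.03% towards LI and 9.58% towards SP, both higher than the members' shares. The member peaks past 2-fold towards LI were in Tnfrsf9 (5) and Traf3 (3), and all those towards SP were in Fas. Only 1 peak of 1 kb or more passed 2-fold in each direction: the first peak of Tnfrsf9 with a ratio of 1.45 (lower bound 0.90) and the Fas peak printed above with -1.39 (-2.09 to -0.68).

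Levels were compared between genes as the mean RPKM over all bases of the body. Only peak values were available, so bases outside peaks added no signal. The mean therefore depends on how much of the body the peaks cover as well as on their height. In SP, Tnfrsf4 came first with 31.5 RPKM, followed by Traf1 with 21.02, Tnfrsf18 with 19.4, Traf2 with 19.1 and Tnfrsf1b with 18.9. Cd27 had 11.0 RPKM, Tnfrsf1a 10.5, Traf3 8.69, Tnfrsf9 5.19 and Fas 2.46. In LI, scaled to the same total, Tnfrsf4 had 39.7 RPKM, Tnfrsf18 33.2, Tnfrsf1b 25.2, Traf1 23.8, Traf2 19.3, Tnfrsf1a 11.3, Cd27 9.48, Traf3 9.36, Tnfrsf9 8.80 and Fas 1.55. The median coding gene had 4.95 RPKM in SP and 5.04 RPKM in LI, so in both libraries every member except Fas stood above the median. With 1 library per tissue there is no spread by which neighbours in this order could be separated. The level of Tnfrsf9 is averaged over a body that starts well before its first peak.

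As a group the 10 genes had a median ratio of 0.12 and ranged from -0.69 to 0.97, against a median of 0.01 over all genes. The ratio was above 0 in 7 genes and below 0 in 3, and of all genes 50.7% had a ratio above 0 and 49.3% below. The counting interval lay above 0 in 5 members and below 0 in 1, beside 18.0% and 15.2% of all genes. The GC content of member peaks, weighted by length, ran from 44.2% in Fas to 53.8% in Tnfrsf1a, beside a median of 46.5% over all peaks. After the trend with GC content was removed, the median ratio of the 10 genes was 0.06. Tnfrsf9 then gave 0.94, Tnfrsf18 0.66, Tnfrsf1b 0.38 and Fas -0.60. Tnfrsf4 fell to 0.16 (-0.05 to 0.37) and Traf1 to 0.11 (-0.02 to 0.24), so that their intervals then included 0, and Cd27 moved to -0.38 (-0.67 to -0.08).

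**Figure D4:**
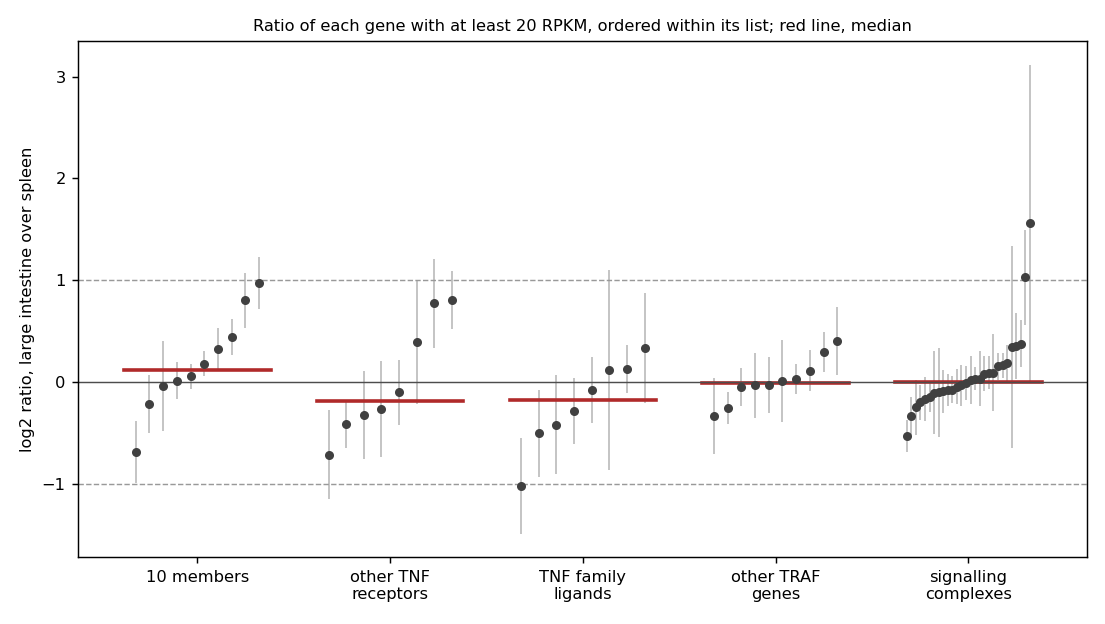
Log2 ratio of large intestine over spleen of each gene with at least 20 RPKM in both libraries together, ordered by ratio within 5 gene lists, with approximate 95% counting intervals; red lines show the list medians and dashed lines 2-fold. The medians lie between -0.18 and 0.12, and single genes pass 2-fold only among the ligands (Ltb) and the signalling complex genes (Ripk3 and Mlkl).

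Other genes of the same pathway are given from lists chosen by name. Of 21 other receptors of the superfamily, 8 had peaks and enough signal and 13 had no peak, among them Cd40, Ltbr, Tnfrsf13c and Tnfrsf21. Of the 8, 3 had a ratio above 0 and 5 below, none passed 2-fold, the interval lay above 0 in 2 and below 0 in 2, and the median was -0.18. Of these 8, Tnfrsf10b, which encodes a receptor for TRAIL, had the largest summed signal over both libraries. It had 85.0 RPKM in SP and 153.9 RPKM in LI (ratio 0.81, 0.52 to 1.09). Tnfrsf26, a receptor of a mouse cluster on chromosome 7, and Tnfrsf8, which encodes CD30 and lies 20.3 kb from Tnfrsf1b, were picked out after their values had been seen. Tnfrsf26 had 128.1 RPKM in SP and 99.5 RPKM in LI (-0.41, -0.64 to -0.17), and Tnfrsf8 had 76.8 and 135.9 RPKM (0.77, 0.34 to 1.21).

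Of 18 ligand genes, 8 had enough signal and 10 had no peak, among them the genes for the ligands of OX40, CD137, GITR and CD27. The median ratio of the 8 was -0.18, with 3 above 0 and 5 below, and the interval lay below 0 in 2 and above 0 in none. Ltb, which encodes lymphotoxin beta, was over 2-fold higher in SP, with 20.8 RPKM in SP and 10.4 RPKM in LI in its only peak (-1.02, -1.49 to -0.54). Tnfsf11, which encodes RANKL, had the largest summed signal, with 114.1 and 128.9 RPKM (0.13, -0.11 to 0.37).

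All 10 other TRAF and TRAF-binding genes had enough signal, with a median of -0.01, ratios from -0.33 to 0.40 and none past 2-fold. The interval lay above 0 in 2 and below 0 in 1. Tank, whose 37 peaks gave the largest summed signal, had 328.3 and 327.7 RPKM (-0.05, -0.24 to 0.14). Such sums grow with the number of peaks and do not rank levels between genes. Of 29 genes of the receptor signalling complexes, 28 had enough signal and a median of 0.01, with 14 ratios above 0 and 14 below. The interval lay above 0 in 7 and below 0 in 4. The 2 genes past 2-fold, both towards LI, were Ripk3, a kinase of the necroptosis pathway, and Mlkl, its substrate. That is 2 of 28, beside 3.43% of all genes past 2-fold towards LI. Ripk3 had 15.2 RPKM in SP and 32.5 RPKM in LI (1.03, lower bound 0.56), and no longer passed 2-fold after GC correction (0.92). Mlkl had 5.41 and 17.5 RPKM (1.56, 0.01 to 3.11) from 2 small peaks that cover 1.75% of its body. Map3k5, a kinase of the stress pathway, had the largest summed signal in this list, with 675.2 and 782.2 RPKM over 70 peaks (0.17, 0.05 to 0.29).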

How the data were processed

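H3K36me3 ChIP-seq was available as 1 table of merged peaks with a value for splenic and for large intestinal Treg cells. The authors mapped 75 nt single-end reads to mm10. They called peaks per tissue (MACS2, p threshold 0.01, splenic input as background) and joined both sets with bedtools. RPKM tracks from bamCoverage were then summarised by multiBigwigSummary as 1 mean per peak. Per the labels Bowtie2 and FastQC were also used. The deposited values are therefore mean RPKM per peak, although the table is named as counts, and no count test was run. Value times length was a whole multiple (within 0.02) of 1.69 (SP) and 1.31 (LI) RPKM times bp in 100% of the 83687 and 74575 peaks tested, which gave the depths with a bin of 20 bp, a size read from peaks on bin edges.

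Peak coordinates fit GRCm38 (0 peaks past a chromosome end in 21 chromosomes). Peaks were given to GENCODE M21 genes by midpoint and summed per library, LI was scaled to the SP total over all peaks, and 0.5 RPKM was added before taking log2 ratios. Genes under 20 RPKM in both libraries together were left out. Peaks in more than 1 gene body counted for each. The scripts (Python 3.11.15, pandas 2.3.3, numpy 2.4.6, scipy 1.17.1) were tested on simulated data. A marker gene is not reported here. Members and lists were chosen with earlier results of these data known. The text names the 10 members, and from each pathway list the genes past 2-fold and the gene with the largest summed signal. It also names coding neighbours that share peaks with a member or differ from it by over 1 log2 unit. Other flanking genes were named after their values were seen. The design had assumed no test, with 1 library per group, and was kept. Alternatives were other scalings, pseudocounts, filters, peak sets and weights and a GC correction (median ratio in 20 bins of GC content).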

Additional observations from a re-analysis of the deposited data

How the results depend on the processing

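Of 115 recomputed ratios of single members, 102 stayed within the counting interval with the same sign, 5 moved outside it with the same sign, and 8 reversed, all in Tnfrsf1a and Traf2, whose intervals included 0. Tnfrsf1a turned to 0.0064 with the deposited scaling, to 0.11 in its strongest peak and in peaks of 1 kb or more, and to 0.10 with peaks weighted by length. Traf2 turned to -0.051 with the nearest transcript start, -0.068 in peaks of 1 kb or more, -0.0048 without its strongest peak and -0.086 after GC correction. The interval of Traf3 lay above 0 in its strongest peak (0.23), with peaks weighted by length (0.11) and in peaks of 1 kb or more (0.17). Tnfrsf9 ranged from 0.66 to 1.05 and Tnfrsf18 from 0.50 to 0.93. Peaks in no other gene body left Tnfrsf9, Tnfrsf18 and Cd27 without a value.

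Members past 2-fold towards LI numbered 1 (Tnfrsf9) with the deposited scaling and 1 without the strongest peak. At 200 RPKM or more, 6 members remained, 1 higher in SP and 3 with an interval above 0. The interval lay above 0 in 3 members after GC correction and in 3 with peaks in no other gene body, and below 0 in 0 with the strongest peak, 2 after GC correction and 2 with reads taken to cover 75 bp, an alternative chosen after seeing the data. Over all genes, counts past 2-fold towards LI and SP were 624 and 457 with no filter, 70 and 39 at 200 RPKM and 120 and 40 in peaks of 1 kb or more, against 373 and 222, and 138 towards SP with a pseudocount of 5. Member peaks past 2-fold numbered 5 and 0 with a pseudocount of 5 and 1 and 1 at 1 kb or more, and 9 towards SP after GC correction. Fewer genes or peaks enter the stricter filters; otherwise the cause was not tested. No paired analysis was possible because each tissue has 1 library. Low depth widens the intervals of short peaks.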

Other observations

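Among the pathway genes not yet described, 13 had counting intervals away from 0, 6 of them above and 7 below. They are given as values chosen after they had been seen. Counting all genes with enough signal, the interval lay above 0 in 2 of 8 other receptors, 0 of 8 ligands, 2 of 10 other TRAF genes and 7 of 28 complex genes. It lay below 0 in 2, 2, 1 and 4 of them. The shares over all genes were 18.0% above and 15.2% below, so such intervals are not particular to this pathway. Ikbke, which encodes an NF-kB and interferon pathway kinase, had 133.2 RPKM in SP and 95.03 RPKM in LI over 5 peaks (log2 ratio -0.53, approximate counting interval -0.69 to -0.37). Casp8 and Cflar, which encode the caspase that death receptors activate and its inhibitor, had 257.7 and 211.0 RPKM (-0.33, -0.52 to -0.15) and 255.7 and 230.0 RPKM (-0.20, -0.37 to -0.02). Traf5 had 308.3 and 266.9 RPKM (-0.25, -0.41 to -0.10), whereas Tab1, an adaptor of the kinase TAK1, had 179.0 and 240.1 RPKM (0.38, 0.15 to 0.61). Spata2, an adaptor of the deubiquitinase CYLD, had 74.2 and 98.3 RPKM (0.36, 0.03 to 0.68), Cyld itself 427.6 and 398.2 RPKM (-0.15, -0.29 to -0.004), and Otulin, another deubiquitinase gene, 498.3 and 573.0 RPKM (0.16, 0.02 to 0.29). Birc3, a ubiquitin ligase gene, had 166.1 and 195.8 RPKM (0.19, 0.01 to 0.37). Traf4 had 46.2 and 63.2 RPKM (0.40, 0.07 to 0.73) and Trafd1 94.4 and 120.2 RPKM (0.30, 0.10 to 0.50). Tnf, which encodes the ligand of TNFR1 and TNFR2, had 15.9 and 11.4 RPKM (-0.50, -0.92 to -0.08). After GC correction Casp8 gave -0.18, Cflar -0.20, Ikbke -0.68, Traf5 -0.32, Tab1 0.22, Spata2 0.19, Otulin 0.11, Birc3 0.24, Traf4 0.12, Trafd1 0.18 and Tnf -0.63, and Cyld turned to 0.07. Among these genes, every ratio that had been above 0 came out smaller after correction except that of Birc3. The corrected values are given without intervals, so they do not show which genes stay away from 0. In the chromosome 7 cluster, Tnfrsf22 had 101.5 and 63.8 RPKM (-0.71, -1.15 to -0.27) beside Tnfrsf26 with -0.41. None of these differences has a replicate.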
